A study of Mus musculus with 4 samples.

Results

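The enzymes that make, recycle and break down deoxynucleotides were examined in mouse fibroblasts after knockdown of *Setd2*. The members are the 9 genes *Rrm1*, *Rrm2*, *Rrm2b*, *Tk1*, *Dck*, *Dctd*, *Dut*, *Tyms* and *Samhd1*, of 21945 genes in the deposited table, and every tested transcript that carries 1 of these symbols was used, which gave 15 of 34200 transcripts. The genes were chosen after it had been seen in these same libraries that *Rrm2* was higher in the knockdown while most replication genes were not. The differences between knockdown and control in these 9 genes are therefore given as a description, without a test.

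NIH/3T3 is an established line of immortalised mouse embryonic fibroblasts. Cells received both *Setd2*-specific siRNAs together (KD) or a Scrambled, non-targeting siRNA (called WT in the labels), with siRNA at 10 nM, and cells were lysed for RNA 48 h later. Polyadenylated RNA of 2 KD and 2 WT libraries was sequenced, and no other genetic change or agent separates the groups in the labels. Since the siRNAs were combined, the part of each siRNA cannot be told apart. SETD2 is the methyltransferase that places H3K36me3 along transcribed gene bodies.

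DNA synthesis draws on a small pool of deoxynucleoside triphosphates (dNTPs), which dividing cells refill by reducing ribonucleotides. Ribonucleotide reductase does this with a large catalytic subunit, RRM1, and a small subunit that carries the radical, either RRM2, which is made in S phase and degraded in mitosis and G1, or RRM2B, a p53-induced form that serves cells outside S phase. Salvage kinases return nucleosides to the pool, DCTD and DUT yield deoxyuridylate, which TYMS turns into thymidylate, and SAMHD1 breaks dNTPs down.

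The deposited values are pooled over the libraries. Group levels of a transcript are given in normalised estimated counts, that is, estimated reads divided by a factor for the size of each library. Differences are KD minus WT on the log2 scale with their standard error (SE), which rests on the spread within the 2 groups of 2 libraries. No single library was analysed on its own, so whether KD and WT libraries overlapped in a transcript was not examined, and the read depth of each library is unknown. The siRNA target was checked first. *Setd2* (ENSMUST00000153838.7) had 3680.4 normalised estimated counts in the WT group and 923 in the KD group, a difference of −1.99 ± 0.048 (SE, n = 2 per group, limma adjusted p = 0.0144), and thus fell by 74.9%. All 10 fibroblast markers were tested, each with at least 1000 normalised estimated counts in both groups (2 called higher, 3 called lower in KD). Of 11 markers of epithelial, endothelial, blood, muscle and neural cells 8 were tested, between 1.64 and 391 in KD and between 5.33 and 303 in WT, and *Epcam*, *Myod1* and *Sox10* were not among the transcripts tested.

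The promoters of the subunits of ribonucleotide reductase are shown because *Rrm2* and *Rrm1* encode partners in the same enzyme and differed in response. Promoters here are RefSeq windows on GRCm38.p6, from 250 bases before to 50 bases after the annotated start, and 8 of 9 genes have an entry. *Rrm2* (chr12:24708004-24708303, plus strand) and *Rrm1* (chr7:102441445-102441744, plus strand) are printed 5′ to 3′, with capitals on an E2F core word, CCAAT and TTTAAA.

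Rrm2: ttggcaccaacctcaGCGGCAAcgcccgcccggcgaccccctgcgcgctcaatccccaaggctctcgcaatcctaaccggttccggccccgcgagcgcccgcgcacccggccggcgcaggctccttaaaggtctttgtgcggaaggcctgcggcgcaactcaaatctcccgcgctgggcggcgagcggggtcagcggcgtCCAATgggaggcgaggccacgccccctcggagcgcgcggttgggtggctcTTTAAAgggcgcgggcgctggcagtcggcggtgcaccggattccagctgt
Rrm1: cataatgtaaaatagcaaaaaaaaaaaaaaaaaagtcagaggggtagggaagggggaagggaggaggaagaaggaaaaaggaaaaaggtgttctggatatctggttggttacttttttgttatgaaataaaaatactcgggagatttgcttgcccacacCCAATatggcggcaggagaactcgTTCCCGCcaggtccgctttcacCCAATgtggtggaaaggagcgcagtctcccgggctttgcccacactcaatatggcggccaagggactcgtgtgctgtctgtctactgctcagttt

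The E2F core, with TTCCCGC as the first spelling, TTCGCGC as the second spelling, TTGCCGC as the third spelling and TTGGCGC as the fourth spelling, searched on either strand like every word here, lay in both windows, at position −235 on the minus strand in *Rrm2* and at position −67 on the plus strand in *Rrm1*, counted from the annotated start. It was in 2 of the 10 member promoters and in 9.6% of 32851 mouse promoters. CCAAT was in 4 of the 10, those of *Rrm1* (at −91 and −45), *Rrm2* (at −50) and a pair of overlapping *Dctd* windows, and in 37.4% of all promoters. The GC box GGGCGG was in 8 of the 10, against 35.7% of all, and was absent from *Rrm1*. TTTAAA was found for *Dctd*, *Rrm2* and *Tk1* and in 13.2% of all promoters, and TTTGAA for *Dck* and in 17.9%. TATAAA was in 0 of the 10 and in 13.6% of all. The G and C content was 71.3% in the *Rrm2* window and 47.0% in that of *Rrm1*, with a median of 52.7% over all promoters. These words were written down after the promoters had been seen, and a match describes letters, not binding.

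*Rrm2*, the small subunit made in S phase, was the member with the largest difference. Its tested transcript, Rrm2-201 (ENSMUST00000020980.11, chr12:24708241-24714146 on GRCm38, plus strand, 10 exons, 2193 bases with a coding part of 1173), had 6632 normalised estimated counts in KD against 2143 in WT. That is 3.09-fold higher in KD, a difference of 1.63 ± 0.077 (SE, n = 2 per group). The authors report less frequent intron retention of *Rrm2* in KD, which was not examined here. The spread within groups was ordinary for its level, at percentile 49.5 of 2813 transcripts within a factor of 1.5 of its mean. Among 1711 transcripts with at least 100 normalised estimated counts that were called higher in KD, Rrm2-201 ranked 35 by size. In bulk RNA, a different share of cells of a kind, such as cells in S phase, and a different amount of RNA per cell cannot be told apart, for members above or below WT.

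The other subunits of the reductase lay slightly below WT. Rrm1-201, which encodes the catalytic subunit (chr7:102441695-102469771, 19 exons), had 8175 normalised estimated counts in KD against 9476 in WT, a difference of −0.21 ± 0.054. Rrm2b-201, which encodes the p53-induced small subunit (chr15:37923952-37961103, minus strand, 9 exons), had 1326 in KD and 1497 in WT, a difference of −0.17 ± 0.063. Neither was called in the fit described next. The coding sequences of *Rrm2* and *Rrm2b* were identical at 73.3% of 1056 aligned bases and shared 0 words of 31 bases. Of the words of Rrm2-201, 83.5% were in no other annotated gene, and the gene that shared most, Gm48455, held 124 of 2163.

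The fit over all 34200 transcripts used limma, and a transcript was called where its adjusted p was under 0.05. Of all transcripts 9.68% were called, 5.44% higher and 4.24% lower in KD. Among the members 3 of 15 transcripts (20%) were called, 1 higher (Rrm2-201) and 2 lower (Samhd1-201 and Samhd1-202). Since the members were chosen on this contrast, nothing is read from that share. Of the 12 transcripts not called, 5 were above 0 and 7 below, from −0.38 to 0.31, and the median over the 15 was −0.079, against −0.011 over all transcripts. Of all calls 56.2% were higher in KD, and 5.39% were when differences were taken relative to an *Actb* transcript, which was itself 0.46 higher in KD on the log2 scale.

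**Figure D1:**
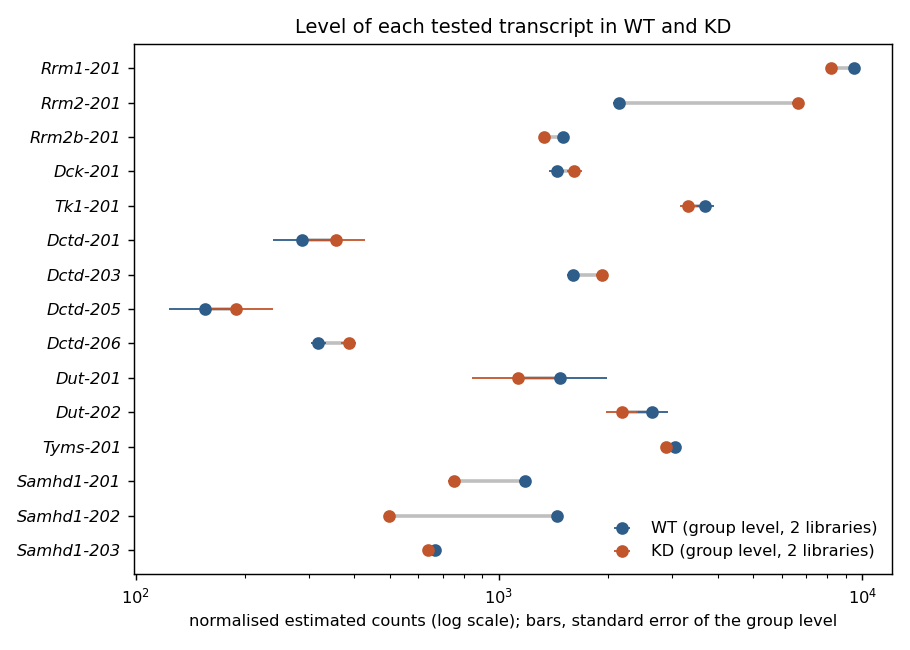
Levels of the 15 tested transcripts in normalised estimated counts on a log axis, with a point for the level of each group (WT blue, KD orange) and the standard error of that level. Rrm2-201 stands at 2143 in WT and 6632 in KD, and Samhd1-202 at 1445 in WT and 499.6 in KD, while most other pairs of points lie close together.

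Levels can be compared between genes after division by transcript length. Per kb of transcript and in WT, Rrm2-201 stood at 977 normalised estimated counts, well below Dut-202 at 2587, Tk1-201 at 2562 and Rrm1-201 at 2371. The steps between these 3 did not exceed the spread, which combines the SDs within groups of both transcripts compared. The step from Rrm1-201 down to Rrm2-201 exceeded it. Rrm2-201 and Tyms-201 (964) did not differ beyond the spread. In KD, Rrm2-201 came first at 3024 per kb and its distance to Tk1-201 (2307) exceeded the spread, while Tk1-201, Dut-202 (2139) and Rrm1-201 (2045) followed without a step beyond it. Dctd-201 came last in both groups, with 139 per kb in WT and 172 in KD, but did not differ from its neighbour beyond the spread in either group.

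The balance of the subunits followed from these levels. Per length, the ratio of *Rrm2* to *Rrm1* RNA was 0.412 in WT and 1.48 in KD, a change of 1.84 ± 0.094 on the log2 scale. The ratio of *Rrm2b* to *Rrm1* was 0.138 in WT and 0.142 in KD, a change of 0.038 ± 0.083. The ratio of *Rrm2* to *Rrm2b* was 2.98 in WT and 10.4 in KD. With 200 bases taken off each length, as reads cannot start at the end of a transcript, the ratio of *Rrm2* to *Rrm1* was 0.431 in WT and 1.55 in KD.

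**Figure D2:**
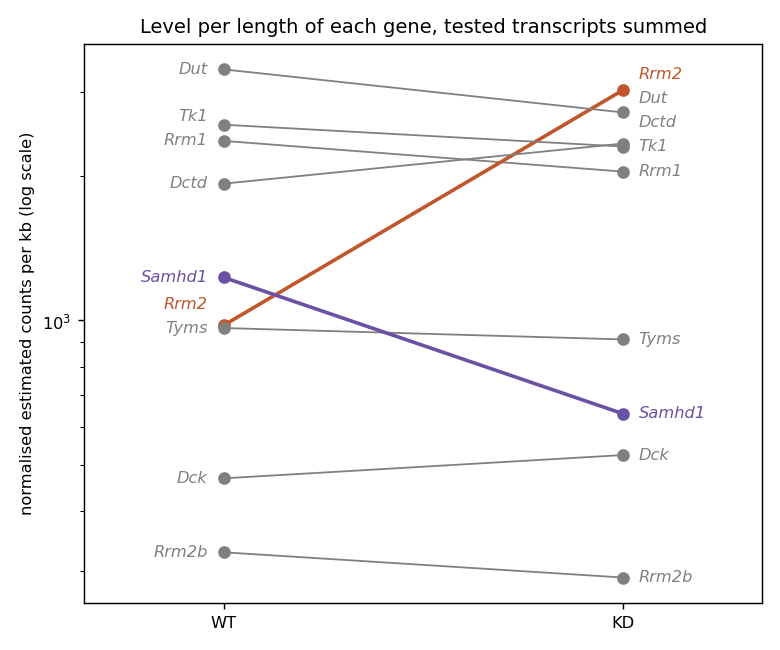
Level per kb of transcript, summed over the tested transcripts of each of the 9 genes, in WT and KD on a log axis. *Rrm2* goes from rank 6 in WT to rank 1 in KD (977 and 3024 per kb), *Samhd1* from rank 5 to rank 7, and the summed levels of the other 7 genes differ by −0.31 to 0.28 on the log2 scale. The first place of *Rrm2* in KD depends on the length used. With lengths shortened as for the ratio of *Rrm2* to *Rrm1*, summed *Dctd* lies above *Rrm2* (3328 per kb) in KD. Dctd-206, of 381 bases, then goes from 1014 to 2134 per kb in KD. Among single transcripts, Rrm2-201 stays first in KD.

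The salvage kinases differed little. Tk1-201 encodes the S phase thymidine kinase (chr11:117815526-117826092, minus strand) and had 3323 normalised estimated counts in KD against 3689 in WT, a difference of −0.15 ± 0.11. Relative to *Actb* the Tk1-201 difference was −0.61, and it was then called lower. Dck-201 encodes deoxycytidine kinase, which also accepts purine nucleosides (chr5:88764996-88783281), and had 1612 in KD and 1441 in WT, a difference of 0.16 ± 0.099 that became −0.29 relative to *Actb*. Per length, the ratio of *Tk1* to *Dck* was 5.47 in WT and 4.41 in KD, a change of −0.31 ± 0.15.

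On the route to thymidylate, *Dctd* transcripts lay above WT and those of *Dut* and *Tyms* below. DCTD deaminates deoxycytidylate to deoxyuridylate, and its 4 tested transcripts (Dctd-203 at chr8:48109958-48141665) differed by 0.27 to 0.31, all of which turned negative relative to *Actb*. Dctd-203 held 67.4% of the gene's counts in KD and 67.7% in WT, with 1924 and 1595 normalised estimated counts and a difference of 0.27 ± 0.075. The SEs of Dctd-201 (0.38) and Dctd-205 (0.48) were larger than their differences. The share of each *Dctd* transcript in the gene was nearly equal in KD and WT, for example 12.5% and 12.2% for Dctd-201.

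DUT splits deoxyuridine triphosphate and so keeps uracil out of DNA. Dut-202 (chr2:125247190-125257748, 7 exons) had 2182 normalised estimated counts in KD against 2639 in WT, a difference of −0.27 ± 0.21. Dut-201 (chr2:125247482-125258608, 6 exons) had 1129 in KD and 1473 in WT, a difference of −0.38 ± 0.60. The spread of Dut-201 within groups (0.60) was the widest among the 15 transcripts, at percentile 98.8 of transcripts of like level, and that of Dut-202 (0.21) was at percentile 93.3. Tyms-201 encodes thymidylate synthase, which methylates deoxyuridylate (chr5:30058827-30073617, minus strand), and had 2888 in KD and 3050.2 in WT, a difference of −0.079 ± 0.058. Of its 31-base words, 78.5% were in no other gene, and 297 were shared with the pseudogene Tyms-ps.

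*Samhd1*, whose product hydrolyses dNTPs, was lower in KD for part of its transcripts. Summed over the 3 tested transcripts it had 1891 normalised estimated counts in KD against 3291 in WT, a difference of −0.80. Samhd1-202 had 499.6 in KD and 1445 in WT, a difference of −1.53 ± 0.054, and ranked 67 of 1232 falls among called transcripts with at least 100 normalised estimated counts. Samhd1-201 had 753 in KD and 1179 in WT, a difference of −0.65 ± 0.075, and ranked 803 of 1232. Samhd1-203 was at 639 in KD and 666 in WT, a difference of −0.059 ± 0.049, and was not called. Relative to *Actb* its difference was −0.52, and it was then called lower as well.

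The share of Samhd1-202 in the gene was 43.9% in WT and 26.4% in KD, that of Samhd1-203 was 20.2% and 33.8%, and that of Samhd1-201 was 35.8% and 39.8%. The transcripts share their upstream exons and differ in where they end. The last coding stretch of each is shown because it is what tells the isoforms apart, read from GRCm38 on the minus strand of chromosome 2, with capitals on the bases found in that isoform and not in the other tested ones. They lie at chr2:157099399-157099503 for Samhd1-201, chr2:157101360-157101443 for Samhd1-202 and chr2:157104817-157104936 for Samhd1-203.

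Samhd1-201: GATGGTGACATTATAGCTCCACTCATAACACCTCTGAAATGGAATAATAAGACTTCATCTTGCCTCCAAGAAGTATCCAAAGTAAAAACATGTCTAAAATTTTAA
Samhd1-202: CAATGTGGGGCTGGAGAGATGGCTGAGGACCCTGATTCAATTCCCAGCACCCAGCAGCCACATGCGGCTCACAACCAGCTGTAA
Samhd1-203: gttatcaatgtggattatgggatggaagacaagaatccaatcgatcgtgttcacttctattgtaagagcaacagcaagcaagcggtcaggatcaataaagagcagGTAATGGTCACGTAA

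Samhd1-203 reads through the end of an exon that the others splice and stops after 15 further bases, followed by 1472 noncoding bases. Samhd1-202 ends at its stop codon, with 0 noncoding bases annotated after it, and 4.27% of its 31-base words were in no other tested transcript (0.0% in no other annotated transcript). The estimate for this isoform therefore depends on how reads were divided between transcripts. The uncertainty that the deposited table attaches to that division was 0.10 on the log2 scale for Samhd1-202, above the spread of 0.054 within groups, and was 0.083 against 0.049 for Samhd1-203.

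**Figure D3:**
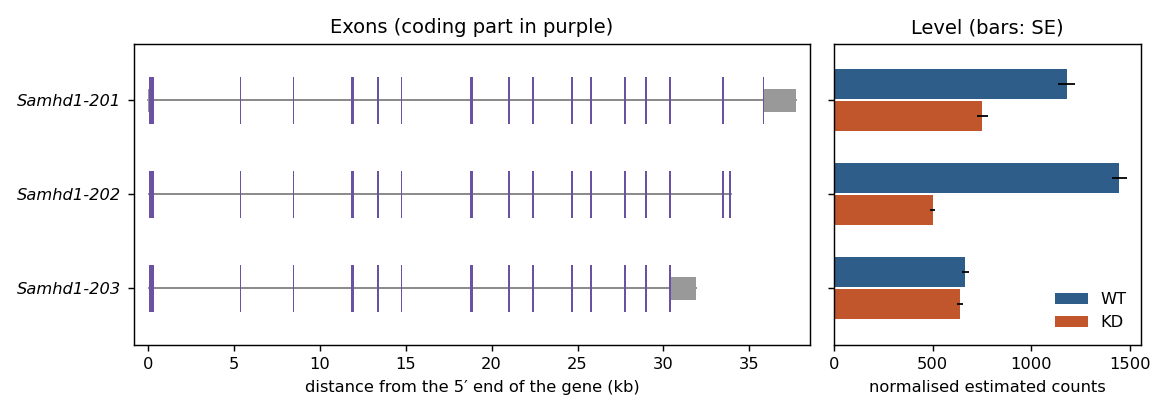
Left, exons of the 3 tested *Samhd1* transcripts by distance from the 5′ end of the gene in kb, with coding parts as tall purple blocks and noncoding parts in grey. Right, the level of each in WT (blue) and KD (orange) in normalised estimated counts with its standard error, 1445 and 499.6 for Samhd1-202, which ends between the other two, and 666 and 639 for Samhd1-203, which ends first.

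**Figure D4:**
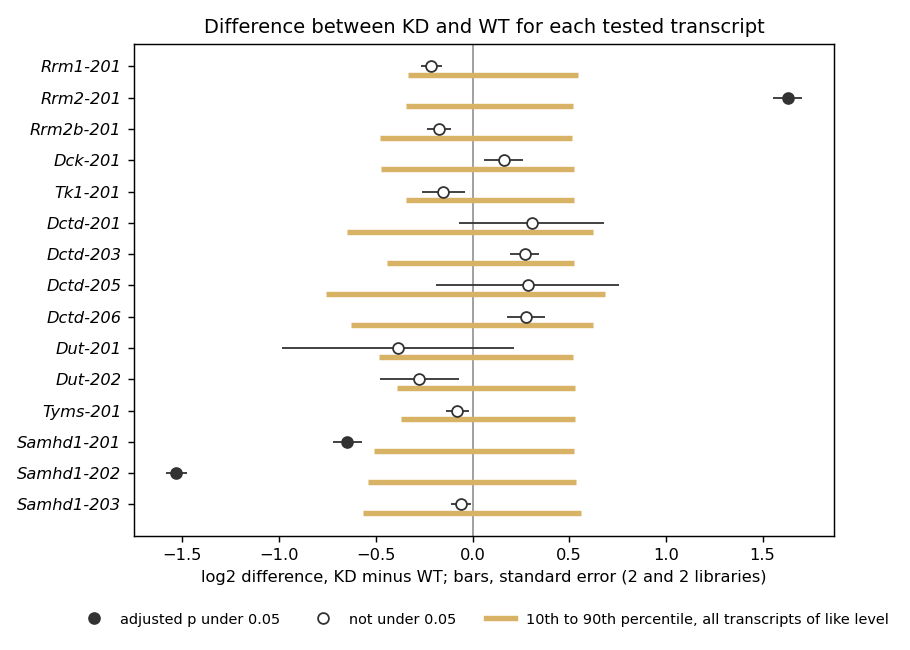
Difference between KD and WT on the log2 scale for each tested transcript, with its standard error (2 and 2 libraries), filled where the transcript was called. The yellow bar below each point spans the 10th to 90th percentile of all transcripts of like level, and Rrm2-201 (1.63), Samhd1-202 (−1.53) and Samhd1-201 (−0.65) lie outside it.

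The genes most like *Rrm2*, taken as the called genes with a mean level within a factor of 2 of Rrm2-201 and the closest difference, were *Usp12* (1.71 ± 0.091), *Zfand2a* (1.69 ± 0.11), *Cryab* (1.51 ± 0.35), *Unc5b* (1.48 ± 0.16) and *Otud6b* (1.34 ± 0.089). Likeness rests on these group differences alone, over 2 groups.

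Genes around the members were read from lists of 142 tested genes. Of these, 21 (14.8%) had a transcript called higher and 15 (10.6%) called lower, with a median difference of 0.081. Relative to *Actb*, which lowers each difference by 0.46, 4 were called higher and 81 lower, so every listed difference below between 0 and 0.46 has the other sign on that scale. Over all 21927 gene symbols 7.48% were called higher and 5.93% lower, with a median of −0.029, and over the 8107 genes with a summed level of at least 1000 normalised estimated counts 16.9% and 9.72%, with a median of 0.091.

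In the supply of bases and nucleotides, most genes were not called. De novo purine synthesis held 3 higher and 1 lower of 13 genes, among them *Prps1*, which makes the ribose donor (0.62 ± 0.084, limma adjusted p = 0.0278), and *Impdh2*, which commits to guanine nucleotides (−0.38 ± 0.033, limma adjusted p = 0.0368). Of the 5 genes of pyrimidine synthesis 1 was higher, the CTP synthase gene *Ctps* (0.35 ± 0.052, limma adjusted p = 0.0483). The nucleotide kinases held 1 higher of 10, through 1 of 2 tested *Nme2* transcripts (0.66 ± 0.16, limma adjusted p = 0.0422), while the *Nme2* sum differed by 0.23. In salvage, 2 of 11 genes were higher and 1 lower, with a transcript of *Aprt*, which recovers adenine, at 0.81 ± 0.15 (limma adjusted p = 0.0430). That transcript held 414 of 12693 normalised estimated counts of the gene in KD, and the *Aprt* sum differed by 0.65. The lower gene was *Tk2*, with a transcript called lower although the sum of its 2 tested transcripts differed by 0.19. In the list of enzymes that break down nucleotides and their products, 0 of 11 tested genes were called.

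The folate enzymes and the reductants stood somewhat higher. Of the 6 genes of the folate cycle 2 were higher, with a transcript of *Shmt2*, the mitochondrial serine hydroxymethyltransferase, at 0.82 ± 0.037 (limma adjusted p = 0.0177) and the gene sum at 0.70. Cytosolic thioredoxin and glutaredoxin systems hand electrons to ribonucleotide reductase. The list of reductants also takes in the mitochondrial *Txn2* and *Txnrd2*. Of its 6 genes 3 were higher and 0 lower, with a median of 0.47. The 3 were *Txn2* (gene sum 0.77), *Txnrd2* and *Gsr* (0.47), while *Txn1* (0.47), *Txnrd1* (0.18) and *Glrx* (0.06) were not called. A transcript of *Txnrd2*, the mitochondrial thioredoxin reductase, was at 1.00 ± 0.15 (limma adjusted p = 0.0261). The sum of the 8 tested *Txnrd2* transcripts differed by 0.67.

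The replication fork and licensing genes, which the choice of members had already set against *Rrm2*, held 3 higher and 7 lower of 43, with a median of −0.027. *Mcm3*, a subunit of the replicative helicase, was higher (1.04 ± 0.079, limma adjusted p = 0.0165), and a transcript of *Pole*, the leading-strand polymerase, was lower (−1.56 ± 0.057, limma adjusted p = 0.0190). That *Pole* transcript had 87.4 normalised estimated counts in KD against 258 in WT, of 3008 and 3795 for the gene, whose sum differed by −0.34. The E2F and Rb family governs S phase transcription, and its list also takes in the cyclins *Ccne1*, *Ccne2* and *Ccna2* and the kinase *Cdk2*. That list held 3 higher and 5 lower of 16, with *E2f2* at 0.87 ± 0.20 (limma adjusted p = 0.0450) and a transcript of *Ccne2* (cyclin E) at −0.82 ± 0.15 (limma adjusted p = 0.0291, gene sum −0.80). The 12 p53 targets held 1 higher, *Phlda3* (0.44 ± 0.0096, limma adjusted p = 0.0301), and 1 lower, a *Cdkn1a* transcript (−0.69 ± 0.088, limma adjusted p = 0.0369) whose gene sum was 0.34. Of the 9 genes of RRM2 turnover and the checkpoint 2 were higher, with 1 of 3 tested *Trp53* transcripts at 0.65 ± 0.11 (limma adjusted p = 0.0347) and the gene sum at 0.35. The other was *Ccnf*, whose 1 tested transcript had 5037 normalised estimated counts in KD against 3374 in WT, a difference of 0.58.

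**Figure D5:**
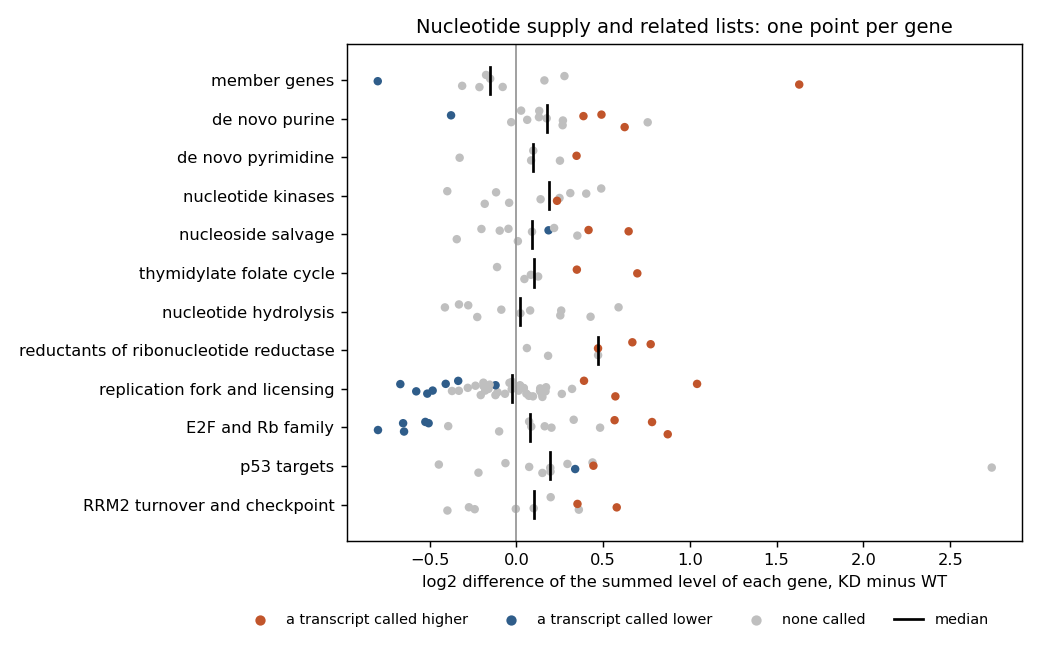
Log2 difference of the summed level of each gene, KD minus WT, for the members and the 11 lists, with a point per gene coloured by whether a transcript was called higher or lower and a black line at the median. *Rrm2* (1.63) lies to the right of every listed gene except *Gdf15* (2.74, none called, 7.02 and 1.05 normalised estimated counts in KD and WT, named after its value was seen).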

How the data were processed

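Libraries were made from polyadenylated RNA of 2 KD and 2 WT samples, grouped by the labels. The authors removed adapters, estimated counts with Kallisto and compared groups with Sleuth. The transcript index was not given in the sources used here. The deposited means are natural log values, which the authors obtained by dividing estimated counts by a library size factor and adding 0.5, and deposited variances are on the same scale. The deposited effects, standard errors, p-values, q-values and the gene table hold the authors' own comparison and were not used, except that the sign of the effect was read to give each difference its direction. That sign has *Setd2* lower in KD, so the direction of *Setd2* is not an independent check. The size of each difference was recovered from the variance over the 4 libraries and the variance within groups, and differed from the deposited effect by at most 3.09e-10.

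limma (3.58.1, R 4.3.3) was run with a trend on the mean over all 34200 transcripts, two-sided, with 2 residual degrees of freedom and Benjamini-Hochberg adjustment, and was tested on simulated data. The simulated variances were drawn from the prior of this fit, so that run cannot show whether the trend suits these data. The SE is the pooled SD within groups of the transcript itself, whereas the p-values use a variance that limma draws toward the trend. A p-value therefore does not follow from the SE printed beside it. With pooled values, p-values measure only the spread between these libraries. Group levels are back-transformed means minus 0.5. Positions, lengths and coding parts came from GENCODE M21 (GRCm38), which matched 98.6% of transcripts. Members and lists were chosen with earlier results of these data known. Named genes are all members, *Setd2*, the largest called rise and fall of each list (mean level not under 100), and the 5 genes most like *Rrm2*. Named later were *Gdf15*, *Ccnf*, *Tk2*, the reductant genes besides *Txnrd2*, and the cyclin and kinase genes of the E2F and Rb list besides *Ccne2*. Alternatives were limma without the trend or with a robust prior, a limit on low levels, a normal reference with variances no smaller than the trend, centring on the median, division by *Actb*, the leading transcript of a gene alone and a shortened length. Proteins were not compared, since no protein table was used.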

Additional observations from a re-analysis of the deposited data

How the results depend on the processing

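The members were chosen on this contrast, so their calls under other settings describe the processing and are not a test of the members. Rrm2-201, Samhd1-201 and Samhd1-202 were called under the robust prior, the limit of 100 normalised estimated counts, the normal reference, centring on the median and division by *Actb*, and were not called by limma without a trend. That fit called 127 transcripts instead of 3312, with 0 members and 0 listed genes in either direction, and *Setd2* (−1.99) had an adjusted p of 0.0537. With only transcripts of at least 100 normalised estimated counts, 33 listed genes were higher, against 21. The normal reference with the larger of each variance and the trend called 8248 transcripts, 5 members (also Rrm1-201 and Dctd-203), and 40 listed genes higher and 28 lower, against 21 and 15. Relative to *Actb*, which lowers every difference by 0.46 on the log2 scale, 9828 transcripts and 9 members were called, 4 listed genes were higher and 81 lower, and the differences of *Dck* (−0.29) and of Dctd-201 (−0.15), Dctd-203 (−0.19), Dctd-205 (−0.17), Dctd-206 (−0.18) and summed *Dctd* (−0.18) turned negative. Besides Rrm2-201, Samhd1-201 and Samhd1-202, the 9 members called relative to *Actb* were Rrm1-201, Rrm2b-201, Tk1-201, Tyms-201, Dut-202 and Samhd1-203, each lower in KD. At an unadjusted p under 0.05, 9656 transcripts passed. No paired analysis was possible because only values pooled over the libraries were used, and leaving out each library was not run for the same reason.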
